A study of Homo sapiens with 16 samples.

Results

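STL427944, a small-molecule FOXM1 inhibitor, was compared with its solvent DMSO in KG-1 cells, an established human acute myeloid leukemia (AML) cell line of myeloblast-like suspension cells. The comparison covers the genes that averaged 10 or more counts over its 4 libraries, which were 14011 of the 43836 genes counted (32.0%), and 11694 of these are protein-coding in GENCODE release 44. The cells of all 4 libraries carried a lentiviral non-target control shRNA (the pLKO.1-puro vector) and had been selected as a stable, puromycin-resistant population. Libraries 1 and 2 labelled STL427944 came from cells given 50 μM of the compound for 48 h, and the 2 DMSO libraries from cells given 0.3% DMSO for 48 h. The whole series holds 16 RNA-seq libraries in 8 groups of 2, which also cover FOXM1 knockdown cells and the drugs MK-2206, AraC and venetoclax. Among these, the 2 control libraries given 0.1 μM venetoclax, a BCL2 inhibitor, for 48 h are set beside the STL427944 libraries below, because library similarity turns on them.

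FOXM1 is a forkhead transcription factor that switches on genes of G2 phase and mitosis. It reaches many of its targets through the MuvB complex and B-MYB, which sit at short promoter elements called CHR (cell cycle genes homology region), often next to CCAAT boxes bound by NF-Y. In AML cells FOXM1 supports proliferation and is tied to AKT signaling and drug resistance. STL427944 is known to act on FOXM1 protein, which leaves the nucleus and is degraded, so FOXM1 mRNA need not follow the protein.

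Before any gene is described, the 2 STL427944 libraries have to be seen apart, since they differed from each other more than each differed from another group. CPM are counts scaled to the TMM-adjusted library total, except where the plain total is named. The rho values and 2-fold counts of this paragraph use the plain total. Spearman's rho of log2 CPM across the 14011 genes, which are not independent replicates, was 0.995 and 0.994 between STL427944 library 1 and the DMSO libraries. Between that library and venetoclax library 2 it was 0.993. It was 0.959 between the 2 STL427944 libraries, and 6 libraries of other groups lay nearer to library 1 than its own replicate did. The nearest library to STL427944 library 2 was venetoclax library 1, with a rho of 0.988, against 0.965 and 0.964 for the DMSO libraries. Counted as genes 2-fold or more apart, the STL427944 pair differed in 2318 genes and the venetoclax pair in 2150, whereas the DMSO pair differed in 80. STL427944 library 1 and venetoclax library 2 were 2-fold apart in 100 genes, and STL427944 library 2 and venetoclax library 1 in 540. In the quasi-likelihood fit with these libraries as groups of their own, 0 genes were called between STL427944 library 1 and venetoclax library 2, and 1 between STL427944 library 2 and venetoclax library 1. At an unadjusted p below 0.05 these counts were 138 and 475. Each of these tests sets 1 library against 1, with its spread taken from other groups, so low counts do not show that libraries are alike. The labels were kept as given, and each result below is stated for each library. The compound that a library received cannot be told apart from a difference between libraries here.

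**Figure D1:**
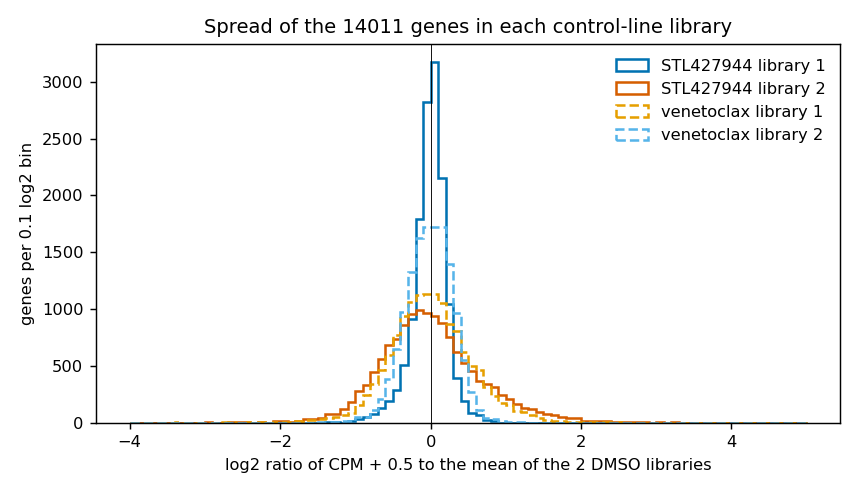
Histogram of the log2 ratio of CPM + 0.5 to the mean of the DMSO libraries (x axis) for the 14011 genes, as genes per 0.1 log2 bin (y axis), for the STL427944 libraries (solid) and the control venetoclax libraries (dashed). STL427944 library 1 (SD 0.235) is narrow, like venetoclax library 2 (SD 0.31), and STL427944 library 2 (SD 0.687) is wide, like venetoclax library 1 (SD 0.564).

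Gene counts totalled 18167309 and 18558194 in the DMSO libraries, 19026938 in STL427944 library 1 and 12621145 in STL427944 library 2, so genes of low count were measured less precisely in library 2. Both STL427944 libraries had the expression pattern of the control line rather than of the knockdown line. In CPM of the plain library total, 209 genes on in control cells and off in knockdown cells summed to 15698 and 15358. The 134 genes with the reverse pattern summed to 3.84 and 8.95. Blood cell markers such as CD34, LCP1 and PTPRC had at least 2877 counts in each library, while the epithelial and fibroblast markers had at most 1 count. Of the T and B cell markers, CD3E had 103 and 103 counts with DMSO and 97 and 7 in STL427944 libraries 1 and 2, and CD79A had 135, 149, 136 and 76. The make-up of library 2 differed in further ways. MALAT1, a nuclear long non-coding RNA, took 2.55% of its counts, protein-coding genes 94.3% (97.1% in each DMSO library) and replication-dependent histone genes 0.568% (1.22% and 1.35% with DMSO). The part of these shifts in the results below was not tested. TMM scaling left the median log2 ratio of all 14011 genes at 0.005 in library 1 and -0.05 in library 2, and total counts alone would place it at -0.001 and 0.11.

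As a group of 2, the STL427944 libraries gave no gene past the threshold of a 2-fold change and an adjusted p below 0.1. By edgeR's quasi-likelihood test 0 of the 14011 genes (0.0%) were called, the smallest adjusted p was 0.878, and 117 genes (0.835%) had an unadjusted p below 0.05, of which 40 were higher and 77 lower. The exact test of edgeR also called 0, with 226 genes at an unadjusted p below 0.05. DESeq2 called 1 gene, the inducible chaperone gene HSPA6 (log2 fold change 5.10, SE 0.96, adjusted p = 0.00245), and had 290 below 0.05. HSPA6 had 0.112 and 0.390 CPM with DMSO, 1.08 in STL427944 library 1 and 16.1 in library 2, and its reads cannot all be told from those of its near-identical copy HSPA7. It reached the minimum of 10 counts on average only through library 2, with 224 counts there and 2, 7 and 20 in the other libraries. With library 1 left out, 1111 genes were called (669 higher, 442 lower), and with library 2 left out, 0. In each of these fits STL427944 has 1 library, whose spread is assumed to be that of the 2 DMSO libraries. Of 184 named genes other than FOXM1, 78 changed the sign of their 4-library log2 fold change without library 2. None of them was called with all 4 libraries. The named genes were chosen in part for differing between the STL427944 libraries, so that count describes them and not all genes.

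Ranges that do not overlap were common and need a background. In 1640 genes (11.7%) both STL427944 libraries lay above both DMSO libraries, and in 1886 (13.5%) both lay below. Lists are read against these shares throughout.

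FOXM1 mRNA (chr12:2857680-2877174, minus strand, GRCh38) was 142.8 and 139.9 CPM with DMSO, 138.2 CPM in STL427944 library 1 and 116.4 CPM in library 2. Both STL427944 values were the lower ones, library 1 by about as little as the DMSO libraries differed from each other. The log2 fold change over the 4 libraries was -0.15 (SE 0.17, adjusted p = 0.887), and library 2 alone gave -0.31 (SE 0.31, adjusted p = 0.946). The venetoclax libraries had 126.1 and 129.4 CPM. The partners of FOXM1 in the MuvB and DREAM complexes, 12 of 12 measured, had no called gene. Their median log2 ratio was 0.015 in library 1 and -0.30 in library 2. MYBL2, which encodes B-MYB, was 178.9 and 184.5 CPM with DMSO, 170.3 in library 1 and 104.5 in library 2. LIN37 and TFDP2 stayed within 1.5-fold of DMSO in both libraries.

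The promoters of 4 G2/M genes are shown because they carry the elements through which FOXM1 and MuvB act, here the 120 bases before the RefSeq start (GRCh38.p14), with CHR elements (TTTGAA or TTTAAA) and CCAAT boxes of either strand in capitals. CCNB1 and CCNB2 encode B-type cyclins, PLK1 a mitotic kinase and CDC20 an activator of the anaphase-promoting complex. Their positions are chr5:69167030-69167149 for CCNB1, chr15:59105026-59105145 for CCNB2, chr16:23678769-23678888 for PLK1 and chr1:43358861-43358980 for CDC20, all on the plus strand.
CCNB1: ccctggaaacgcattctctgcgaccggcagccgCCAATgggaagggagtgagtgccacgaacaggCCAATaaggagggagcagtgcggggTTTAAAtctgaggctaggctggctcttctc
CCNB2: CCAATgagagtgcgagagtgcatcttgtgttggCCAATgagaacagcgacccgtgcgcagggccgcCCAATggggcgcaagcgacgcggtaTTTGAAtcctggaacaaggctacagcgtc
PLK1: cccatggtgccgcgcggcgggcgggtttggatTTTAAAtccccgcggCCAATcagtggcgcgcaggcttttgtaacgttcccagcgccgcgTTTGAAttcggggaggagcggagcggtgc
CDC20: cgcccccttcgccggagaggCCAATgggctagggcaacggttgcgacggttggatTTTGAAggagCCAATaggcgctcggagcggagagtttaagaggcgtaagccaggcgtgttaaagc
The CHR of CCNB1, CCNB2 and PLK1 ends 24 or 25 bases before the start, and the CDC20 element ends 60 bases before it. In windows from 250 bases before to 50 after the start, 29 of the 37 G2/M genes with a promoter in the table held a CHR on either strand (78.4%), against 24.3% of 27305 promoters and 16.2% of those of the protein-coding genes compared here. A CCAAT box was in 26 of 37 (70.3%, against 35.7%), and the forkhead letters TGTTTAC in 1 of 37 (2.7%, against 3.41%). The G2/M list was drawn up as genes driven by FOXM1. The CHR letters were also in 19 of 40 promoters of the histone list below (47.5%). Such matches describe the letters in the window and do not show binding.

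The G2/M and mitosis genes differed between the STL427944 libraries. All 42 were measured. In library 1 their median log2 ratio to DMSO was 0.07, with 30 above and 12 below, and in library 2 it was -0.90, with 41 below and 17 of them 2-fold or more lower (4.78% of all genes were). CCNB1 was 131.0 and 130.4 CPM with DMSO, 144.8 CPM in library 1 and 56.9 CPM in library 2, and CDC20 was 121.5, 119.1, 122.4 and 44.1 CPM in the same order. For both genes library 1 lay near or above DMSO and library 2 well under it. PLK1 was 60.4 and 62.2 CPM with DMSO, 65.2 in library 1 and 25.8 in library 2. The kinase CDK1 was 168.7 and 177.4 CPM with DMSO, 205.3 in library 1 and 89.1 in library 2. Among the targets with smaller shifts in library 2, AURKB was 60.3 and 62.4 CPM with DMSO, 61.5 in library 1 and 41.4 in library 2. UBE2C, a ubiquitin-conjugating enzyme of mitotic exit, was lower in both, more so in library 2, at 32.3 and 33.3 CPM with DMSO against 29.8 and 14.8. In both STL427944 libraries together 10 of the 42 lay below both DMSO libraries and 1 above (13.5% and 11.7% of all genes did).

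In the test of library 2 against DMSO, which takes its spread from the 7 other groups, 0 of the 42 genes were called, although 378 genes were called in all (2.7%, with 2.01% higher and 0.692% lower). CDC20 had a log2 fold change of -1.48 (SE 0.43, adjusted p = 0.128), and PLK1 -1.28 (SE 0.40, adjusted p = 0.164). The fit includes the venetoclax pair, whose own libraries differed in 2150 genes. With that pair left out, an alternative added after the data were seen, library 2 had 980 called genes (6.99%, with 4.15% higher and 2.84% lower), and 10 of the 42 were among those called lower: AURKA, CCNA2, CCNB1, CCNB2, CDC20, CKS2, KIF20A, MAD2L1, PLK1 and PTTG1. The corresponding medians of the venetoclax libraries were -0.85 in library 1 and 0.18 in library 2.

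**Figure D2:**
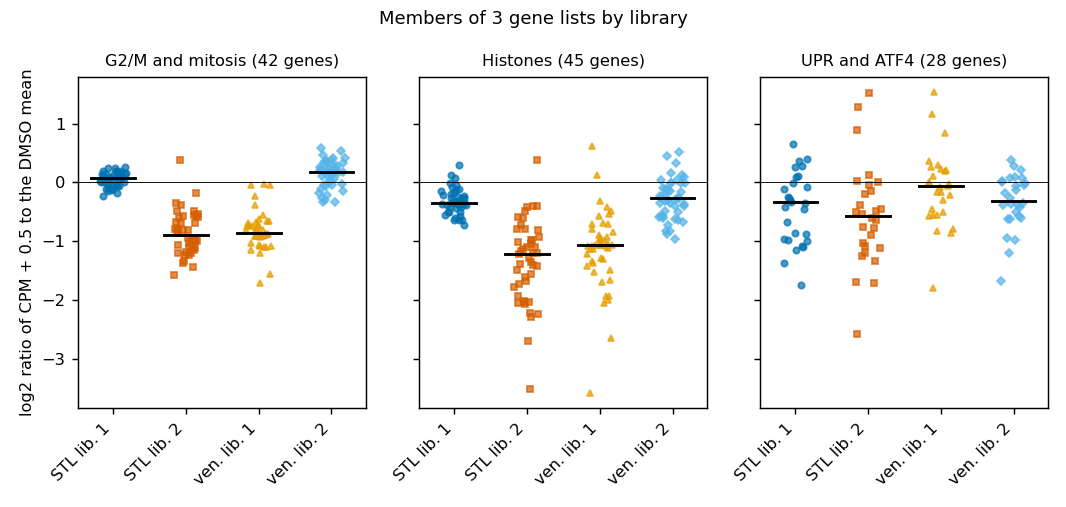
Log2 ratio of CPM + 0.5 to the DMSO mean (y axis) of each gene of 3 lists in the STL427944 and control venetoclax libraries (x axis), with the list median as a black bar. G2/M genes center on 0.07 in STL427944 library 1 and on -0.90 in library 2, histone genes on -0.35 and -1.21, and the unfolded protein and ATF4 genes on -0.34 and -0.57.

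Genes of DNA replication, the E2F targets of the G1/S transition, showed the same division with smaller differences. Their median log2 ratio was -0.001 in library 1 and -0.60 in library 2, with 36 of 40 below DMSO in library 2 and none called. MCM2, a subunit of the replicative helicase, was 574.1 and 538.7 CPM with DMSO, 510.9 in library 1 and 279.2 in library 2. PCNA, the sliding clamp of the replication fork, was 264.4 and 255.5 CPM with DMSO, 295.9 in library 1 and 129.6 in library 2. Without the venetoclax pair GINS1, MCM2, PCNA and RRM1, 4 of the 40, were called lower in library 2 (2.84% of all genes were). Checkpoint and homologous recombination genes lay nearer to DMSO, with a median of 0.003 in library 1 and -0.16 in library 2. That last median is 0.014 with total counts in place of TMM.

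Replication-dependent histone genes, which are transcribed in S phase and whose mRNAs lack a poly(A) tail, were lower in both STL427944 libraries. Of the 45 measured, 37 had both libraries below both DMSO libraries (13.5% of all genes did) and none above. The median log2 ratio was -0.35 in library 1, with 42 of 45 below DMSO, and -1.21 in library 2, with 44 of 45 below. In library 2, 22 of the 45 were called lower (0.692% of all genes were), and 28 were without the venetoclax pair. In library 1 none was called (0.0%). H2BC11 was 485.0 and 564.9 CPM with DMSO, 338.6 in library 1 and 111.6 in library 2, where the log2 fold change was -2.26 (SE 0.41, adjusted p = 0.0226). H2BC8 was 144.7 and 180.8 CPM with DMSO, 122.3 in library 1 and 24.7 in library 2 (log2 fold change -2.75, SE 0.61, adjusted p = 0.042). H2BC14 had the largest difference of the list in library 2, with 55.6 and 76.6 CPM under DMSO, 48.6 in library 1 and 5.32 in library 2 (log2 fold change -3.66, SE 0.88, adjusted p = 0.0575). The venetoclax libraries were at medians of -1.065 and -0.27. The total share of counts on these genes was 1.01% in both STL427944 library 1 and venetoclax library 2. Histone genes are near-identical copies of each other, so reads may be divided among them, and the 2 DMSO libraries themselves were 1.22% and 1.35%. The promoters of 2 of them follow, with CCAAT boxes of either strand in capitals, which 35 of 40 histone promoters held (87.5%). H2BC14 lies at chr6:27814902-27815021 on the plus strand and H2BC8 at chr6:26216689-26216808 on the minus strand, as the 120 bases before the start.
H2BC14: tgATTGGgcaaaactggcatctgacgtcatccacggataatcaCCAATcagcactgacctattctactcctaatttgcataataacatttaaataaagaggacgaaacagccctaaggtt
H2BC8: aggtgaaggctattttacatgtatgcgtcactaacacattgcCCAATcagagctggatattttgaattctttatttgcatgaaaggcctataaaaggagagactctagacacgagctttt

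Genes of amino acid supply and of the ATF4 stress program were lower in both STL427944 libraries. ATF4 is the transcription factor of the amino acid and integrated stress response, and it drives enzymes of serine and asparagine synthesis, amino acid transporters and tRNA synthetases. Of the 28 genes measured on the unfolded protein and ATF4 list, 16 had both STL427944 libraries below both DMSO libraries (13.5% of all genes did) and none above, and 12 had an unadjusted p below 0.05 in the 4-library test (0.835% of all genes did). None passed the adjusted threshold, where each of those named here had an adjusted p of 0.878. The median log2 ratios were -0.34 in library 1 and -0.57 in library 2. Asparagine synthetase (ASNS, chr7:97851677-97872542, minus strand) was 59.9 and 71.0 CPM with DMSO, 30.7 in library 1 and 30.0 in library 2. Its log2 fold change was -1.11 (SE 0.18), with an unadjusted p of 0.00215. PHGDH (chr1:119648411-119744218), which commits glucose carbon to serine, was 124.6 and 124.2 CPM with DMSO, 56.02 in library 1 and 66.8 in library 2 (log2 fold change -1.02, SE 0.17). The next enzyme of serine synthesis, PSAT1 (chr9:78297125-78330093), was 188.0 and 194.5 CPM with DMSO, 103.5 in library 1 and 58.3 in library 2 (log2 fold change -1.24, SE 0.31). For these enzymes the DMSO and STL427944 values did not overlap, and the STL427944 libraries lay near each other for ASNS and PHGDH.

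Other ATF4 targets had the same order. STC2, a secreted glycoprotein, was 12.6 and 8.96 CPM with DMSO, 2.87 in library 1 and 4.24 in library 2 (log2 fold change -1.62, SE 0.34). CHAC1, which degrades glutathione, was 109.8 and 145.0 CPM with DMSO, 65.6 in library 1 and 39.35 in library 2 (log2 fold change -1.28, SE 0.32). DDIT4 and SESN2 restrain mTOR complex 1. DDIT4 was 119.7 and 84.35 CPM with DMSO, 47.5 in library 1 and 16.6 in library 2, and SESN2 was 65.3, 72.55, 37.85 and 26.9 CPM in the same order. The cystine transporter SLC7A11 was 152.2 and 156.2 CPM with DMSO, 96.4 in library 1 and 75.4 in library 2. TRIB3, a pseudokinase that feeds back on ATF4, was lower in library 1 than in library 2, at 27.9 and 27.2 CPM with DMSO against 10.4 and 19.4. ATF4 mRNA itself was 511.5 CPM in each DMSO library, 413.5 in library 1 and 301.8 in library 2. In library 2 alone DDIT4 and PSAT1 were called lower, with log2 fold changes of -2.65 (SE 0.44, adjusted p = 0.0162) and -1.74 (SE 0.39, adjusted p = 0.0456).

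The ASNS promoter is shown for the element in capitals, TGATGNAA in its general form, to which ATF4 binds with a C/EBP partner. This motif was chosen after the values were seen. The stretch is chr7:97872409-97872528 on the minus strand, the 120 bases before one RefSeq start, and the element covers bases 68 to 61 before it.
ASNS: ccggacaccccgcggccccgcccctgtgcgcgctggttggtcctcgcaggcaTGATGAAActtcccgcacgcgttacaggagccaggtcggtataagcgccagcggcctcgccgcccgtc
These letters were in 5 of 26 promoters of the unfolded protein and ATF4 list (19.2%), in 6 of 14 of the tRNA synthetase list (42.9%), in 3.67% of all promoters and in 1.65% of those of the protein-coding genes compared here.

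**Figure D3:**
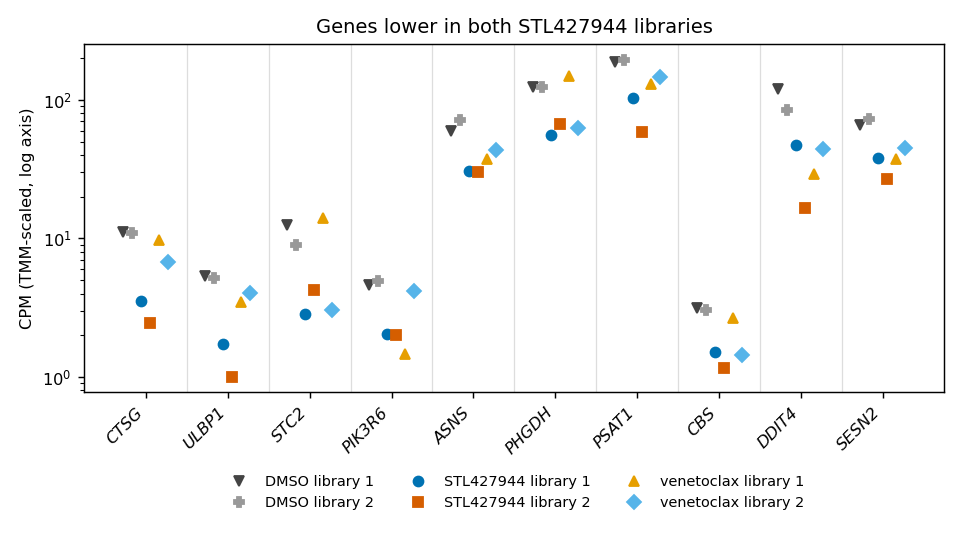
CPM on a log axis (y) of the 10 protein-coding genes with the widest gap between the DMSO libraries and the nearer STL427944 library below them (x), 1 point for each DMSO, STL427944 and control venetoclax library. Both STL427944 points lie below both DMSO points for every gene, by the rule that chose them, while the venetoclax points lie at either level, as for PHGDH with 148.8 and 62.7 CPM.

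The venetoclax libraries did not sort PHGDH, STC2 and TRIB3 in the way they sorted the cell cycle genes. PHGDH was 148.8 CPM in venetoclax library 1 and 62.7 in library 2, and STC2 was 13.9 and 3.04 CPM, so for both genes venetoclax library 2 sat with the STL427944 libraries and library 1 with DMSO. TRIB3 was 34.0 and 14.0 CPM in the same order. ASNS was 37.5 and 43.8 CPM, between DMSO and STL427944 in both. In contrast DDIT4, PSAT1, CHAC1, SESN2 and SLC7A11 were lower in venetoclax library 1 than in library 2, as the cell cycle genes were. DDIT4 was 29.0 and 44.3 CPM in venetoclax libraries 1 and 2, and SLC7A11 was 105.3 and 161.7 CPM. The list medians of the venetoclax libraries were -0.06 and -0.31. Endoplasmic reticulum chaperones of the same list did not follow the ATF4 targets. HSPA5 (BiP) was 204.9 and 187.7 CPM with DMSO, 308.8 in STL427944 library 1 and 171.4 in library 2, and HSP90B1 was 276.5, 280.9, 357.5 and 214.3 CPM. Library 1 was the highest of the 4 for both. DDIT3 (CHOP) and PPP1R15A (GADD34) were higher in library 2 and not in library 1, at 6.71 and 6.79 CPM against 5.25 and 17.2 for DDIT3, and PPP1R15A was called higher there (log2 fold change 1.52, SE 0.39, adjusted p = 0.0847).

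Aminoacyl-tRNA synthetases load amino acids onto tRNAs, and several are ATF4 targets. All 18 were measured, and 13 had both STL427944 libraries below both DMSO libraries (13.5% of all genes did). The medians were -0.155 in library 1 and -0.82 in library 2, where 18 of 18 lay below DMSO (7476 of all 14011 genes did). In the 4-library test 4 had an unadjusted p below 0.05 (0.835% of all genes did). WARS1 was lower to a like degree in both libraries, with 390.6 and 427.2 CPM under DMSO, 216.3 in library 1 and 232.9 in library 2 (log2 fold change -0.86, SE 0.16, unadjusted p = 0.00375). CARS1 was 165.7 and 173.5 CPM with DMSO, 112.6 in library 1 and 100.3 in library 2 (log2 fold change -0.67, SE 0.16). In contrast VARS1 and KARS1 were at DMSO level in library 1 and lower in library 2, with 265.4 and 232.4 CPM against 250.6 and 99.0 for VARS1. YARS1 was the 1 gene of the 18 called lower in library 2 (log2 fold change -1.02, SE 0.27, adjusted p = 0.0952), against 0.692% of all genes. Without the venetoclax pair 5 of the 18 were, EPRS1, GARS1, KARS1, VARS1 and YARS1, against 2.84% of all genes.

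The granule protease cathepsin G (CTSG, chr14:24573518-24576250) had the widest gap of the protein-coding genes with 10 or more counts in each library. It was 11.2 and 10.9 CPM with DMSO, 3.515 in STL427944 library 1 and 2.45 in library 2, while the venetoclax libraries had 9.71 and 6.77 CPM. Its log2 fold change was -1.87 (SE 0.28, unadjusted p = 0.00147), and library 2 alone passed the threshold (log2 fold change -2.20, SE 0.45, adjusted p = 0.0332). ULBP1, a stress ligand of the NKG2D receptor, was 5.31 and 5.17 CPM with DMSO, 1.73 in library 1 and 1.01 in library 2. PIK3R6, a regulatory subunit of PI3K gamma, was 4.59 and 4.90 CPM with DMSO, 2.055 and 2.01 in the STL427944 libraries and 1.47 in venetoclax library 1. CBS, which makes cystathionine from homocysteine, was 3.13 and 3.06 CPM with DMSO, 1.51 in library 1 and 1.15 in library 2. Library 2 rested on 14 to 34 counts for CTSG, ULBP1, PIK3R6 and CBS.

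Genes higher in both STL427944 libraries had narrower gaps and low counts. By the same rule the 10 with the widest gap were TAX1BP3, SYCP2, ADHFE1, FOXD4L1, MATR3, FAM227A, C7orf25, ZNF774, MSANTD2 and SNAI1. SYCP2, of the meiotic synaptonemal complex, was 0.895 and 0.835 CPM with DMSO, 1.68 in library 1 and 3.45 in library 2. MSANTD2 was the best counted of them, with 3.36 and 3.06 CPM under DMSO and 5.08 and 5.18 under STL427944, and venetoclax library 1 reached 6.16 CPM. The MATR3 entry here is a low-count gene model of that symbol, at 0.839 and 0.556 CPM with DMSO, so its reads may belong to an overlapping gene. None of the 10 was called in the 4-library fit or in the test of either library alone. ABCC2, a drug efflux pump, was higher in both libraries at 1.24 and 3.81 CPM, against 0.559 and 0.501 with DMSO, and was called in library 2 (log2 fold change 2.80, SE 0.71, adjusted p = 0.0747). CES3, a carboxylesterase, was also higher in both, with 0.336 and 0.223 CPM under DMSO and 1.19 and 1.37 under STL427944. It averaged 10 counts only through the latter. The same holds for ABCC2, which had 10 and 9 counts with DMSO, so its call is a description.

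STL427944 library 2 alone differed from DMSO in many genes: 1094 were 2-fold or more higher (7.81%) and 670 lower (4.78%). The same shares were 4.14% and 2.83% in venetoclax library 1, and 0.114% and 0.335% in venetoclax library 2. Of the 378 called, 281 were higher and 97 lower, a division that became 540 higher and 95 lower with total counts. Without either DMSO library the count was 0. Among the 281 called higher 106 were protein-coding and 94 long non-coding RNAs, and 95 of the 97 called lower were protein-coding. In library 1 the same 281 genes had a median log2 ratio of 0.02 and the 97 a median of -0.105, and in venetoclax library 1 the medians were 0.85 and -1.125. These genes were chosen on library 2, so their values there are a description.

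The 10 highest log2 ratios of library 2 to DMSO are given for protein-coding genes with 10 or more counts in every library. Some genes with fewer counts in a DMSO library lie outside that limit, such as HSPA6, HMOX1 and JUN with log2 ratios of 4.47, 3.31 and 3.30. AHNAK, a giant scaffold protein under the plasma membrane (chr11:62433542-62556235), was 2.35 and 2.89 CPM with DMSO, 1.57 in STL427944 library 1 and 35.4 in library 2 (log2 fold change 3.72, SE 0.53, adjusted p = 0.00537). Venetoclax library 1 had 19.75 CPM and library 2 3.29 CPM. MS4A2, the beta chain of the IgE receptor, was 1.68 and 3.23 CPM with DMSO, 1.46 in library 1 and 28.4 in library 2 (log2 fold change 3.498, SE 0.53, adjusted p = 0.00878). CDKN1C, the CDK inhibitor p57, was 0.783 and 0.668 CPM with DMSO, 1.08 in library 1 and 8.201 in library 2 (log2 fold change 3.46, SE 0.69, adjusted p = 0.026). SARM1, an NAD hydrolase, was 3.58 and 3.28 CPM with DMSO, 3.245 in library 1 and 27.5 in library 2. LAMA5, LRP1B, CCL4L2, COL24A1, CEACAM19 and TG complete the 10, and in library 1 none of them was 2-fold above DMSO, with values from 0.757 to 26.9 CPM. CCL4L2 shares nearly all its sequence with CCL4.

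The 10 lowest ratios of library 2 were taken in the same way. LRRC32, which tethers latent TGF-beta (chr11:76657524-76670747), was 45.4 and 35.6 CPM with DMSO, 44.6 in library 1 and 2.16 in library 2 (log2 fold change -4.25, SE 0.91, adjusted p = 0.038). LGALS12, a galectin of myeloid cells, was 34.8 and 31.5 CPM with DMSO, 35.3 in library 1 and 1.94 in library 2, and venetoclax library 1 also had 1.94. TXNIP, which inhibits thioredoxin and glucose uptake, was 185.3 and 208.7 CPM with DMSO, 126.8 in library 1 and 14.8 in library 2 (log2 fold change -3.76, SE 0.83, adjusted p = 0.041). The myeloid master regulator CEBPA (chr19:33299934-33302534) was 27.2 and 26.7 CPM with DMSO, 17.5 in library 1 and 2.95 in library 2 (log2 fold change -3.22, SE 0.60, adjusted p = 0.0232). The venetoclax libraries had 4.69 and 15.9 CPM of CEBPA, so in each pair of alike libraries the values lay close. LTB, IL2RA, LZTS1, VSIR, MYO3B and the histone gene H2BC14 complete the 10, and all but VSIR (adjusted p = 0.104) were called.

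**Figure D4:**
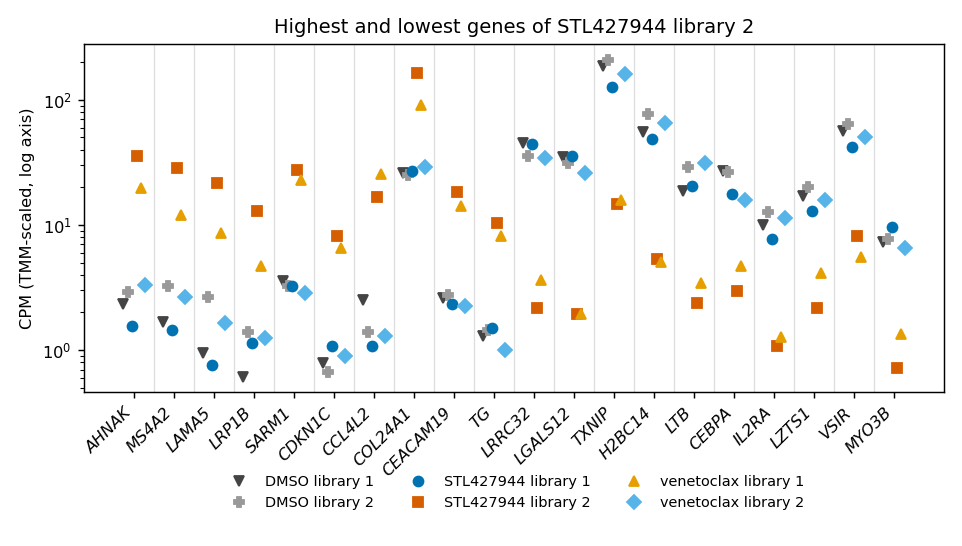
CPM on a log axis (y) of the 10 highest and the 10 lowest protein-coding genes of STL427944 library 2 relative to DMSO, among those with 10 or more counts in each library (x), 1 point for each DMSO, STL427944 and control venetoclax library. The points of STL427944 library 2 and venetoclax library 1 lie on the same side of the other 4. They coincide for LGALS12 at 1.94 CPM in both, and are further apart for others, as for LRP1B at 13.0 and 4.69 CPM.

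Of the 16 AP-1 and immediate early genes 11 lay above DMSO in library 2 and 2 were called higher, and of the 15 NF-kB targets and cytokines 13 lay above and 1 was called (2.01% of all genes were). Without the venetoclax pair 3 genes of each list were called higher (4.15% of all genes were). The 16 AP-1 and immediate early genes had median log2 ratios of -0.03 in STL427944 library 1 and 0.845 in library 2, and the 15 NF-kB targets and cytokines had -0.22 and 0.99. The venetoclax libraries had 0.87 and -0.012 for AP-1 and 1.07 and -0.05 for NF-kB. JUN was 1.01 and 0.334 CPM with DMSO, 1.46 in library 1 and 11.0 in library 2 (log2 fold change 3.99, SE 0.85, adjusted p = 0.038). The chemokine CCL4 was 0.839 and 0.278 CPM with DMSO, 0.433 in library 1 and 9.06 in library 2 (log2 fold change 3.97, SE 0.99, adjusted p = 0.0672). JUN and ZFP36 were the called AP-1 genes. CCL4 averaged 10 counts, the minimum for a gene to be compared, only through library 2. Its call, with or without the venetoclax pair, is no support for its list. The called genes of the NF-kB list, its count above DMSO and its median all include CCL4. RELB was 11.8 and 16.1 CPM with DMSO, 13.25 in library 1 and 35.8 in library 2, without a call. HMOX1, heme oxygenase and an NRF2 target, was 0.224 and 0.223 CPM with DMSO, 0.433 in library 1 and 6.69 in library 2 (log2 fold change 4.83, SE 1.05, adjusted p = 0.038). HMOX1 too reached the minimum of 10 counts on average only through library 2, where it had 93 counts against 4 in each DMSO library. The 18 NRF2 targets had a median of -0.38 in library 2.

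Heat shock genes lay on opposite sides of DMSO in the 2 STL427944 libraries. In library 1, 18 of 20 lay above DMSO with a median of 0.29, and in library 2, 14 of 20 lay below with a median of -0.54. HSP90AB1, a constitutive HSP90, was 2437 and 2558 CPM with DMSO, 2654 in library 1 and 1080.0 in library 2 (log2 fold change -1.24, SE 0.30, adjusted p = 0.0654). The mitochondrial chaperonin HSPE1 was 58.6 and 66.0 CPM with DMSO, 77.8 in library 1 and 16.4 in library 2. HSPA1B was higher in both, at 31.2 and 26.4 CPM with DMSO against 43.2 and 67.8, and shares its sequence with HSPA1A. The difference between the libraries was itself tested for each gene, and 10 of all 14011 were called (0.0714%), 1 higher in library 1 (0.00714%) and 9 higher in library 2 (0.0642%). None of the 20 heat shock genes was among the 10. That count ran from 0 with only the compared genes in the fit to 672 with edgeR's earlier form of the fit.

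Myeloid differentiation genes were lower in library 2. Of the 10 measured genes of monocyte and granulocyte maturation, 9 were below DMSO in library 2, where the median was -1.35, against -0.06 in library 1. ITGAM (CD11b) was 128.1 and 95.8 CPM with DMSO, 107.6 in library 1 and 23.4 in library 2 (log2 fold change -2.29, SE 0.53, adjusted p = 0.0511). The 18 measured stem cell and leukemia antigens and factors did not share this direction. Their medians were -0.09 in library 1 and 0.18 in library 2, where 11 lay above DMSO and 7 below. Among the 7, CD38 was 245.0 and 192.9 CPM with DMSO, 239.5 in library 1 and 51.9 in library 2. CD33 was 36.0, 41.3, 35.75 and 21.1 CPM in the same order. Both were without a call in the fit with the venetoclax pair. Without the venetoclax pair CD38 was called lower in library 2 (log2 fold change -2.11, SE 0.31, adjusted p = 0.002), as 2.84% of all genes were, and CD33 was not (adjusted p = 0.126).

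Metabolic and biosynthetic genes of library 2 were lower in part. Of 27 glycolysis and hypoxia genes 5 were called lower (0.692% of all genes were): LDHA, GPI, PGAM1, PGK1 and ENO1, all enzymes of the pathway itself. LDHA was 732.3 and 570.0 CPM with DMSO, 810.5 in library 1 and 230.8 in library 2 (log2 fold change -1.53, SE 0.41, adjusted p = 0.0972). GPI was 292.8 and 257.2 CPM with DMSO, 289.4 in library 1 and 97.9 in library 2 (log2 fold change -1.52, SE 0.35, adjusted p = 0.0495). Ribosome biogenesis genes had medians of 0.12 in library 1 and -0.92 in library 2, where 16 of 16 lay below DMSO. The nucleolar gene NOLC1 was 309.1 and 313.2 CPM with DMSO, 332.0 in library 1 and 153.9 in library 2. The 78 cytosolic ribosomal protein genes lay close to the median of all genes in library 1 (-0.03), and in library 2 at -0.17 (-0.175 with TMM and -0.001 with total counts), with RPSA as the called one. Of 1190 long non-coding RNAs 94 were called higher in library 2 and 2 lower (2.01% and 0.692% of all genes were), with a median of 0.52 against -0.02 in library 1. The limit on genes of few DMSO counts given above holds for the long non-coding RNAs too. NEAT1, the RNA of nuclear paraspeckles, was 134.1 and 118.0 CPM with DMSO, 123.8 in library 1 and 673.0 in library 2, and was named after its values were seen.

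The anti-apoptotic genes BCL2, BCL2L1 and MCL1 and the AKT pathway genes AKT1, MTOR and RICTOR were within 1.5-fold of DMSO in both libraries. BCL2 was 138.4 and 141.6 CPM with DMSO, 119.7 in STL427944 library 1 and 128.5 in library 2. BCL2L1, which encodes BCL-XL, was 42.7 and 46.5 CPM with DMSO, 40.7 in library 1 and 32.5 in library 2, and MCL1 was 142.8, 148.7, 152.8 and 113.4 CPM. AKT1 was 97.3 and 101.5 CPM with DMSO, 91.3 in library 1 and 119.6 in library 2. MTOR was 206.8 and 207.5 CPM with DMSO, 192.0 in library 1 and 190.4 in library 2. RICTOR, of mTOR complex 2, was 124.9, 123.2, 126.2 and 165.6 CPM. The anti-apoptotic BCL2A1 was 7.77 and 8.90 CPM with DMSO, 8.92 in library 1 and 2.81 in library 2, without a call. None of the 14 BCL2 family genes and none of the 24 PI3K, AKT, mTOR and FOXO genes was called in either library in the fit with the venetoclax pair. Of all genes 0.0% were called in library 1 and 2.7% in library 2, so lists this short may hold none. The proapoptotic BBC3 (PUMA) was 5.82 and 6.06 CPM with DMSO, 4.33 in library 1 and 19.2 in library 2, without a call (adjusted p = 0.236). Without the venetoclax pair BBC3 was called higher in library 2, with a log2 fold change of 1.65 (SE 0.42, adjusted p = 0.0523), as 4.15% of all genes were. HOXA9 was 55.03 and 48.5 CPM with DMSO, 59.2 in library 1 and 34.8 in library 2, and HOXA10 was 31.4, 22.0, 27.5 and 14.8 CPM. The other HOXA genes of the list had at most 3 counts in each of the 4 libraries.

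Sterol and fatty acid synthesis genes were higher in both STL427944 libraries by little. Of 27 measured, 12 had both libraries above both DMSO libraries (11.7% of all genes did) and 2 below, and the medians were 0.165 and 0.17, against 0.71 and -0.11 in the venetoclax libraries. HMGCS1, at the head of the sterol pathway, was 170.5 and 111.4 CPM with DMSO, 198.0 in library 1 and 230.4 in library 2. None of the 27 was called. Autophagy genes were at -0.03 and 0.10. The autophagy receptor SQSTM1 was 112.6 and 118.8 CPM with DMSO, 109.9 in library 1 and 293.2 in library 2 (log2 fold change 1.31, SE 0.42, adjusted p = 0.170), and without the venetoclax pair it was called higher there (log2 fold change 1.30, SE 0.31, adjusted p = 0.0409). The 13 genes of the mitochondrial genome all had STL427944 and DMSO ranges that overlapped, with MT-ND5 at 416.8 and 901.3 CPM under DMSO, 570.5 in library 1 and 1136 in library 2.

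**Figure D5:**
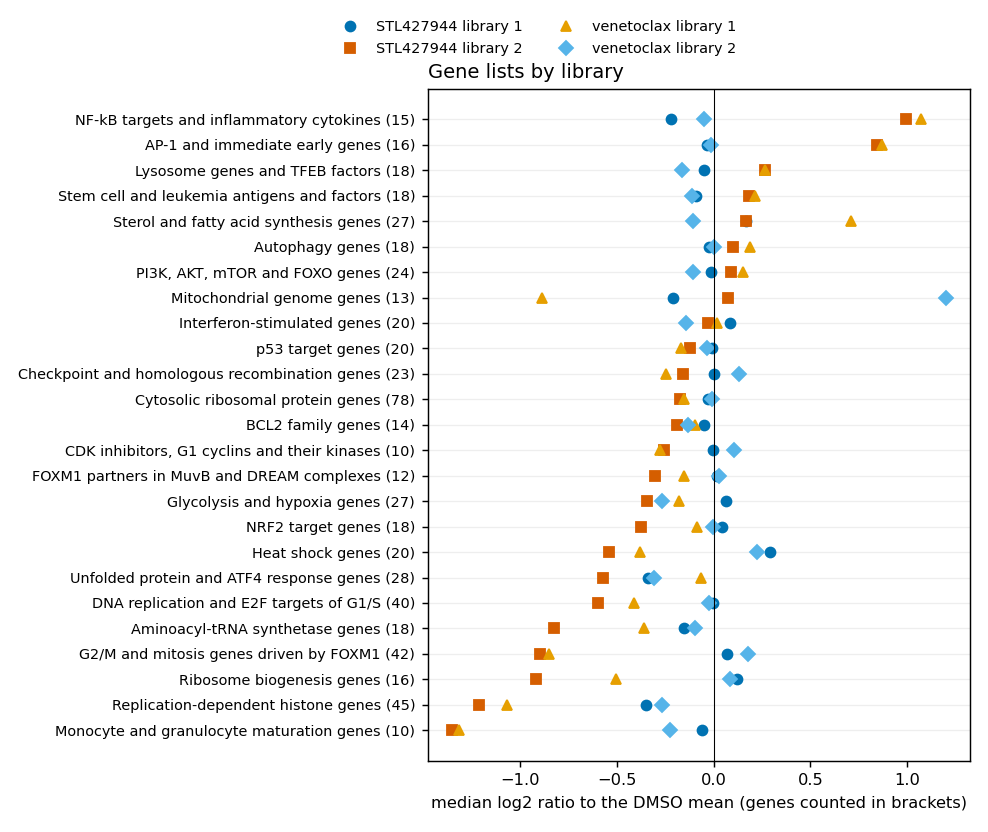
Median log2 ratio to the DMSO mean (x axis) of each gene list with 10 or more measured genes (y axis, number of genes in brackets), for the STL427944 libraries and the control venetoclax libraries. The medians of STL427944 library 2 run from -1.35 for monocyte and granulocyte maturation genes to 0.99 for NF-kB targets, and those of library 1 from -0.35 for histone genes to 0.29 for heat shock genes.

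STL427944 library 1 by itself had 0 called genes, with 94 genes at an unadjusted p below 0.05 in the fit with each of these libraries as its own group. In that library 3 genes were 2-fold or more higher than the DMSO mean (0.0214%) and 33 lower (0.236%). Of the 33, 20 lay below both DMSO libraries together with library 2 (13.5% of all genes did). In library 2, 15 were also 2-fold lower (4.78% of all genes were). The 33 were chosen as low in library 1 against the DMSO mean that library 2 shares. The choice itself partly meets the count of 20, so both counts are a description. Among the 33 were ASNS, PHGDH, STC2 and TRIB3. ASS1, argininosuccinate synthase, was also one of them, at 2.85 and 7.57 CPM with DMSO, 0.595 in library 1 and 2.01 in library 2. ADM2, a secreted peptide, was 2.91 and 1.95 CPM with DMSO, 0.703 in library 1 and 1.01 in library 2. SPNS3, a lysophospholipid transporter family member, was 39.15 and 48.2 CPM with DMSO, 17.8 in library 1 and 24.8 in library 2, with 52.4 and 23.3 CPM in the venetoclax libraries. For ASS1, ADM2 and SPNS3 library 1 was the lower of the STL427944 libraries.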

How the data were processed

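RNA-seq was analysed for 2 STL427944 and 2 DMSO control libraries, with the other 12 of the series where stated. The values are read counts per Ensembl gene deposited by the authors without normalization, made with STAR on hg38 and featureCounts. Tool versions, annotation release and strand setting are not given in the sources used here. The paper names the CORALL kit and the labels TruSeq. The paper describes RNA-seq replicates as biological; where they are not separate cultures, p-values measure technical spread.

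The 22672 genes detected in the 4 libraries entered the quasi-likelihood test of edgeR 4.0.16 (R 4.3.3) after TMM scaling. A call needed an absolute log2 fold change of at least 1, that is 2-fold, together with a Benjamini-Hochberg p under 0.1. Each STL427944 library was also tested alone in 15 libraries, and is assumed to vary like the other groups. The current form of the fit was used (legacy = FALSE), chosen after the data were seen. The earlier form gave an infinite prior degree of freedom. Library ratios are log2 of (CPM + 0.5) over the DMSO mean. Gene types and positions are those of GENCODE release 44, and promoters of RefSeq (GRCh38.p14). Counting error limits low genes.

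The genes and lists were chosen with earlier results of these data known. Named genes were FOXM1, genes the paper names, the 10 with the widest gap in each direction, the 10 highest and lowest of each STL427944 library, and up to 4 genes of each list with the largest change and 2 with the largest difference between STL427944 libraries. CCNB1, CCNB2, ATF4, HSPA5, HSP90B1, MALAT1, NEAT1, HSPA6, CES3 and the called members of lists were named after their values were seen. The exact test of edgeR, DESeq2 1.42.0, further scalings and filters, and fits without each library in turn served as alternatives. Tests were checked on simulated data with 1 fixed spread for all genes and the same change in each STL427944 library. That check does not cover libraries that differ as these did. Results for some genes are not reported here.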

Additional observations from a re-analysis of the deposited data

How the results depend on the processing

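No paired analysis was possible because the labels give the DMSO and STL427944 libraries no replicate numbers. For both STL427944 libraries against DMSO, the count of called genes was 0 in edgeR under every scaling, filter, prior count and threshold tried, 1 with DESeq2, and from 0 to 1111 when each library was left out in turn, with the 1111 from leaving out STL427944 library 1. The log2 fold change of FOXM1 ran from -0.28 to -0.03 over its alternatives and was past no threshold. For STL427944 library 1 against DMSO the count was 0, and 1 with edgeR's earlier form of the fit. For STL427944 library 2 against DMSO the main count of 378 became 635 with total counts, 178 at an adjusted p below 0.05, 1111 with 3 libraries in the fit, 980 without the control venetoclax libraries and 992 with the earlier form (the last 2 chosen after the data were seen), and it was 0 without either DMSO library, where the DMSO group has 1 library. It was 471 with DESeq2, 475 with DESeq2's size factors, 364 with only the compared genes in the fit and 334 with filterByExpr. Between the STL427944 libraries the main count of 10 became 196 with total counts, 132 with DESeq2, 672 with the earlier form, 561 with the control venetoclax libraries as groups of their own, and 0 with only the compared genes in the fit. The cause of these changes was not tested. Of 184 named genes other than FOXM1, 85 changed the sign of the 4-library log2 fold change under some setting: 78 without STL427944 library 2, 6 without STL427944 library 1, 6 and 2 without DMSO library 1 and 2, and 2 with total counts (E2F5 at 0.024 and TFEB at 0.041). Without STL427944 library 1, 71 passed the threshold. None of the 184 was called with all 4 libraries. They were chosen in part for a large difference between the STL427944 libraries, so these counts do not stand for all genes. The log2 fold change over the 4 libraries ran, with each library left out in turn, for ABCC4 from -0.76 to 0.12, AHNAK from -0.74 to 3.75, AKR1C3 from -3.06 to 0.11, AKT1 from -0.12 to 0.27, AURKB from -0.57 to 0.004, BBC3 from -0.46 to 1.69, BCL2A1 from -1.57 to 0.098, BOP1 from -0.81 to 0.042, BTG2 from -0.27 to 1.20, CCL3 from -0.52 to 3.09, CCL4 from -0.36 to 4.00, CCL4L2 from -0.85 to 3.08, CCNA2 from -1.34 to 0.20, CCND2 from -0.98 to 0.016 and CD38 from -2.08 to 0.13. It ran for CDC20 from -1.45 to 0.025, CDK1 from -0.96 to 0.25, CDKN1A from -0.80 to 2.05, CEACAM19 from -0.22 to 2.76, CHEK1 from -0.56 to 0.072, CSGALNACT1 from -0.77 to 0.79, CTSA from -0.14 to 0.71, CTSD from -0.20 to 0.65, CXCL8 from -1.03 to 2.20, CYP1B1 from -1.03 to 0.27, DDIT3 from -0.36 to 1.35, DLGAP5 from -1.38 to 0.26, E2F5 from -0.51 to 0.31, ELOVL6 from -0.96 to 0.18 and ENO2 from -0.32 to 1.16. The range was, for EXO1 from -0.68 to 0.053, FBL from -0.84 to 0.041, FOS from -0.16 to 2.82, GIMAP7 from -1.05 to 0.94, GINS1 from -1.08 to 0.25, GP9 from -0.32 to 0.60, GPI from -1.49 to 0.073, HMGN5 from -0.88 to 0.77, HOXA10 from -0.85 to 0.042, HOXA9 from -0.57 to 0.20, HOXB2 from -0.060 to 0.51, HSP90AB1 from -1.21 to 0.087, HSPD1 from -1.23 to 0.33 and HSPE1 from -1.93 to 0.32. In the same way it ran for INPP5D from -0.13 to 0.44, IRF7 from -0.072 to 1.46, KARS1 from -1.15 to 0.11, LAMA5 from -1.25 to 3.58, LDHA from -1.50 to 0.32, LGALS12 from -4.09 to 0.089, LIN37 from -0.45 to 0.059, LRRC32 from -4.22 to 0.14, MCL1 from -0.36 to 0.069, MCM4 from -0.93 to 0.040, MCM6 from -0.92 to 0.008, MS4A2 from -0.75 to 3.53, MT-ATP6 from -0.66 to 0.54, MT-ATP8 from -0.092 to 0.53 and MT-ND2 from -0.42 to 0.78. Further ranges were, for MT-ND5 from -0.21 to 1.02, MT-ND6 from -0.56 to 0.10, MT2A from -0.16 to 1.24, MYO3B from -3.37 to 0.35, NIP7 from -1.13 to 0.47, NOLC1 from -1.01 to 0.094, NPC1 from -0.049 to 0.82, OSGIN1 from -1.34 to 1.43, PCNA from -1.004 to 0.19, PES1 from -0.92 to 0.077, PGK1 from -1.17 to 0.093, PIK3R1 from -0.50 to 0.18, PLK1 from -1.25 to 0.089, PPP1R15A from -0.27 to 1.55 and RELB from -0.076 to 1.36. The last were, for RPL17 from -0.58 to 0.25, RRM1 from -0.997 to 0.066, SARM1 from -0.080 to 3.00, SQSTM1 from -0.075 to 1.34, TFEB from -0.81 to 0.50, TSC1 from -0.082 to 0.47, UTP20 from -1.13 to 0.25, UVRAG from -0.006 to 0.60, VARS1 from -1.33 to 0.010, WEE1 from -0.56 to 0.075 and WIPI1 from -0.52 to 0.86. The total of STL427944 library 2, 12621145 counts, limits genes of few counts. The medians of checkpoint, p53 target and interferon lists in library 2 changed sign with total counts.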

Other observations

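CYP1B1, an AHR target and drug-metabolizing enzyme, was 250.4 and 225.5 CPM with DMSO, 287.2 in library 1 and 116.4 in library 2, and venetoclax library 1 and 2 had 154.0 and 295.1 CPM. The D-type cyclin CCND2 was 905.2 and 849.1 CPM with DMSO, 887.1 in library 1 and 443.6 in library 2 and was called lower in library 2 (log2 fold change -1.01, SE 0.26; adjusted p = 0.0785).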
